A study of Homo sapiens with 10 samples.

Results

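FN1 and 9 other genes for secreted glycoproteins of the extracellular matrix were followed in RNA sequencing of 2 human lung cancer cell lines, H460 and A549. The 10 genes are FN1, ECM1, EFEMP1, EFEMP2, FBLN1, FBN1, THBS1, TNC, SPARC and OLFML3, found by their symbols among 46427 genes in the table. They were selected from non-collagen matrix glycoproteins with earlier results of these 10 libraries known, and which contrast led to each choice is not recorded. The values of all 10 libraries are therefore given for them as a description, without a p-value, and a count of these genes that changed is no evidence about them.

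H460 cells were grown attached in 2D culture in serum medium (parental, 3 libraries) or had survived 3 days of drug, 3 days of fresh medium and re-plating. The survivors were cisplatin-resistant (CR, 4 uM, 1 library), paclitaxel-resistant (PR, 5 nM, 2 libraries) and doxorubicin-resistant (DR, 0.5 uM, 1 library), here also treated as 1 group of 4 drug-resistant libraries. Tumor spheroid (TS) cells of H460 and A549, 1 library each, grew in suspension for at least 3 passages in a medium that lists growth factors and B27 but no serum, and A549 cells in 2D culture gave 1 library. In the sample labels the TS cells carry the name CTC. Each line is 1 established line, so TS cells differ from 2D cells in attachment and medium at once. Whether the parental cells were re-plated on the same schedule is not given in the sources used here.

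Fibronectin, the product of FN1, is secreted as a dimer and assembled by integrins on the cell surface into fibrils, on which other matrix proteins are laid down. Fibrillin-1 and the fibulins build and decorate microfibrils and elastic fibres. Thrombospondin-1, tenascin-C and SPARC are called matricellular proteins, because they modulate how cells adhere to the matrix more than they hold it together. These proteins come mostly from mesenchymal cells, and carcinoma cells are known to make fibronectin too.

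Between 59499787 and 89541774 reads per library were counted on genes, with a median of 71656787. Levels are given as FPKM (fragments scaled for transcript length and library size), which can be compared between genes, and fitted changes as log2 fold changes of edgeR with their standard error (SE). Nothing in the labels says that the libraries of a group came from separate cultures, so the errors measure the spread between these libraries. KRT8 and KRT18, keratins of simple epithelia, lay between 190 and 3866 FPKM in all libraries. CDH1, the epithelial cadherin, was at most 0.0266 FPKM in every H460 library and 9.29 and 11.9 FPKM in A549 2D and TS cells, and EPCAM was at most 0.114 FPKM in H460.

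Drug-resistant H460 cells had far more FN1 mRNA than parental cells. FN1 was at 467, 171 and 911 FPKM in parental replicates 1, 2 and 3. It was at 4804 FPKM in CR cells, 4115 and 3315 FPKM in PR replicates 1 and 2, and 3691 FPKM in DR cells. All 4 drug-resistant libraries thus lay above all parental libraries, the lowest of them 3.64 times above the highest parental one, and the ratio of the means was 7.71. The fitted log2 fold change was 2.81 (SE 0.52, n = 4 and 3). In bulk RNA, more cells that make a transcript and more transcript per cell cannot be told apart.

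FN1 took more counted reads than any other gene in each of the 4 drug-resistant libraries. Its share of counted reads was 4.26% in CR, 3.72% and 2.94% in PR replicates 1 and 2, and 3.29% in DR cells. In the parental libraries the share was 0.424%, 0.152% and 0.867%, where FN1 ranked 11, 70 and 8 by count and the mitochondrial COX1 came first. By FPKM, which allows for its long transcript, FN1 ranked between 7 and 13 in the drug-resistant and between 55 and 380 in the parental libraries. The parental libraries differed 5.33-fold among themselves, the widest spread among the genes over 1 FPKM in all of them.

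**Figure D1:**
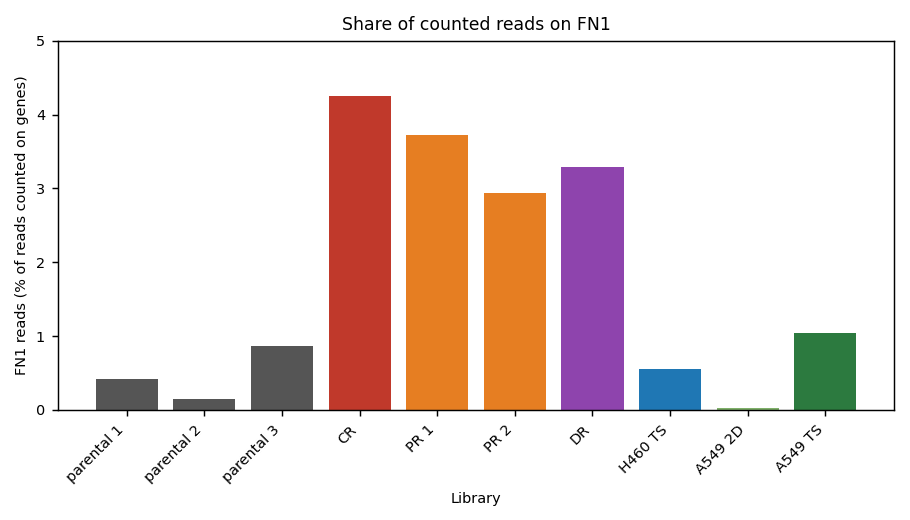
Bars give the percentage of reads counted on genes that fell on FN1, 1 bar per library; the y axis starts at 0 and there are no error bars because each bar is 1 library. The 4 drug-resistant H460 libraries reach 2.94% to 4.26%, while the 3 parental ones stay at or below 0.867% and A549 rises from 0.0286% in 2D to 1.05% in TS culture.

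FN1 in TS culture differed between the 2 lines, as far as 1 TS library each shows. In A549, FN1 was at 30.9 FPKM in 2D and 1136 FPKM in TS cells, a ratio of 36.8 between single libraries. In H460, TS cells had 611 FPKM, which lies inside the parental range. Ordered by level, CR cells came first, then PR and DR cells, A549 TS, H460 TS, parental H460 and A549 2D cells. The DR value lay between the 2 PR values and the H460 TS value between the parental values, so these neighbours in the order did not differ beyond the spread of the libraries.

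The starts of 4 genes that were higher in all drug-resistant libraries are shown as sequence, so that the promoters of a gene group with one direction can be compared. RefSeq promoters matched 9 of the 10 genes, and EFEMP1 had no entry. Each run is the 250 bases before the RefSeq start on GRCh38.p14, written 5′ to 3′ on the strand of the gene. FN1 is at chr2:215436069-215436318 (minus strand), ECM1 at chr1:150507859-150508108 (plus strand), FBN1 at chr15:48644971-48645220 (minus strand) and OLFML3 at chr1:113979224-113979473 (plus strand). In GENCODE 29 the most upstream transcript starts inside the windows of FN1, ECM1 and OLFML3 and beyond that of FBN1, so part or all of a window can be transcribed. Capitals mark the motifs searched on both strands.
FN1: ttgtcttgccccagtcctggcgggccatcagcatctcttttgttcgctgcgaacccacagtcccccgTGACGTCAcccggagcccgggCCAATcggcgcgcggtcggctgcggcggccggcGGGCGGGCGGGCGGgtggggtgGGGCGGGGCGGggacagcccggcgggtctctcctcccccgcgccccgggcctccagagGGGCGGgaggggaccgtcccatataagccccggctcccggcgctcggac
ECM1: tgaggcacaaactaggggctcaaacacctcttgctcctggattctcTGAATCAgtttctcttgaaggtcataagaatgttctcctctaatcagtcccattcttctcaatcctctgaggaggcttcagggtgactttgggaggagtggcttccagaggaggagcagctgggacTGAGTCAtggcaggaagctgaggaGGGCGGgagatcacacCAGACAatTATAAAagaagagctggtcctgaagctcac
FBN1: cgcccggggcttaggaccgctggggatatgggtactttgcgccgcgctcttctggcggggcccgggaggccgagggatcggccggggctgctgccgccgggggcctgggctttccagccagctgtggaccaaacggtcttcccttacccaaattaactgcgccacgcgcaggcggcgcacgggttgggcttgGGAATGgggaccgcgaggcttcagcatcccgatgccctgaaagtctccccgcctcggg
OLFML3: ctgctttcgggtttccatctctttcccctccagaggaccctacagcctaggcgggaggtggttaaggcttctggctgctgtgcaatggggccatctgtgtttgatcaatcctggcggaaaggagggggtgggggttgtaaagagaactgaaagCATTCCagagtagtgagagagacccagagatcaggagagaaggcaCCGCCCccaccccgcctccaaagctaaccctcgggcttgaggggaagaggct

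The 7 motifs were the TATA box (TATAAA), the cyclic AMP response element (TGACGTCA), the AP-1 element (TGANTCA), the GC box (GGGCGG), the CCAAT box (CCAAT), the TEAD element (CATTCC) and the SMAD box (CAGACA). FN1 held the cyclic AMP response element at bases -183 to -176, a CCAAT box at -162 to -158 and 6 GC boxes, some of which overlap. Of 35116 RefSeq promoters of the same length, 1.65% held the cyclic AMP response element and 42.6% a GC box. These promoters leave out 1 chromosome, which holds none of the genes followed here. ECM1 had a TATA box at -30 to -25, found in 10.7% of promoters, and AP-1 elements at -204 to -198 and at -78 to -72, found in 6.57%. Its SMAD box (13.6% of promoters) lay just upstream of the TATA box, at -38 to -33. FBN1 and OLFML3 had neither a TATA box nor a SMAD box, and each held 1 TEAD element, found in 11.9% of promoters. THBS1 and SPARC also held a TEAD element, TNC a SMAD box, and THBS1 a CCAAT box, which 32.0% of promoters hold. No motif was held by all 4 of the printed windows. FN1 was 76.4% G and C, at percentile 92.5 of the 35116 promoters, and ECM1 50.4%, at percentile 33.7. A match is a run of letters and not a bound site.

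In GENCODE 29 (GRCh38), FN1 spans chr2:215360440-215436172 on the minus strand with 27 transcripts. Its splice variants, such as those with or without the extra domains, are summed in 1 gene value and were not separated here. The other genes lie at chr1:150508062-150513789 (ECM1), chr2:55865967-55924139 (EFEMP1), chr11:65866441-65873592 (EFEMP2), chr22:45502238-45601135 (FBLN1), chr15:48408306-48645849 (FBN1), chr15:39581079-39599466 (THBS1), chr9:115019578-115118257 (TNC), chr5:151661096-151687165 (SPARC) and chr1:113979391-114035572 (OLFML3). EFEMP2 overlaps MUS81 on the other strand, and THBS1, TNC, SPARC and OLFML3 each overlap a gene on the other strand too. Whether counting used strand is not given in the sources used here, so reads of these pairs cannot be told apart, which matters most for the low counts of EFEMP2, TNC and SPARC.

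Over the 10 genes, 8 were called higher and 1 lower in drug-resistant than in parental cells by edgeR (Benjamini-Hochberg adjusted p under 0.05). All 10 passed the filter on low counts. TNC and SPARC had fewer than 10 counts in every parental library, so these 2 passed through the drug-resistant libraries, and both were called higher. Among the other 8, 6 were called higher and 1 lower. Of all 18398 genes tested, 18.5% were called higher and 15.3% lower, or 3397 and 2823 genes. With upper-quartile scaling the same fit called 4210 genes higher and 2032 lower. That scaling moved the median log2 change over the tested genes from 0.06 to 0.23 and the median of the 10 genes from 2.23 to 2.40. In 8 genes every drug-resistant library lay above every parental one and in 1 below, which held for 25.8% and 13.6% of all genes tested. The choice of the genes may have used this contrast, so nothing is read from these counts.

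**Figure D2:**
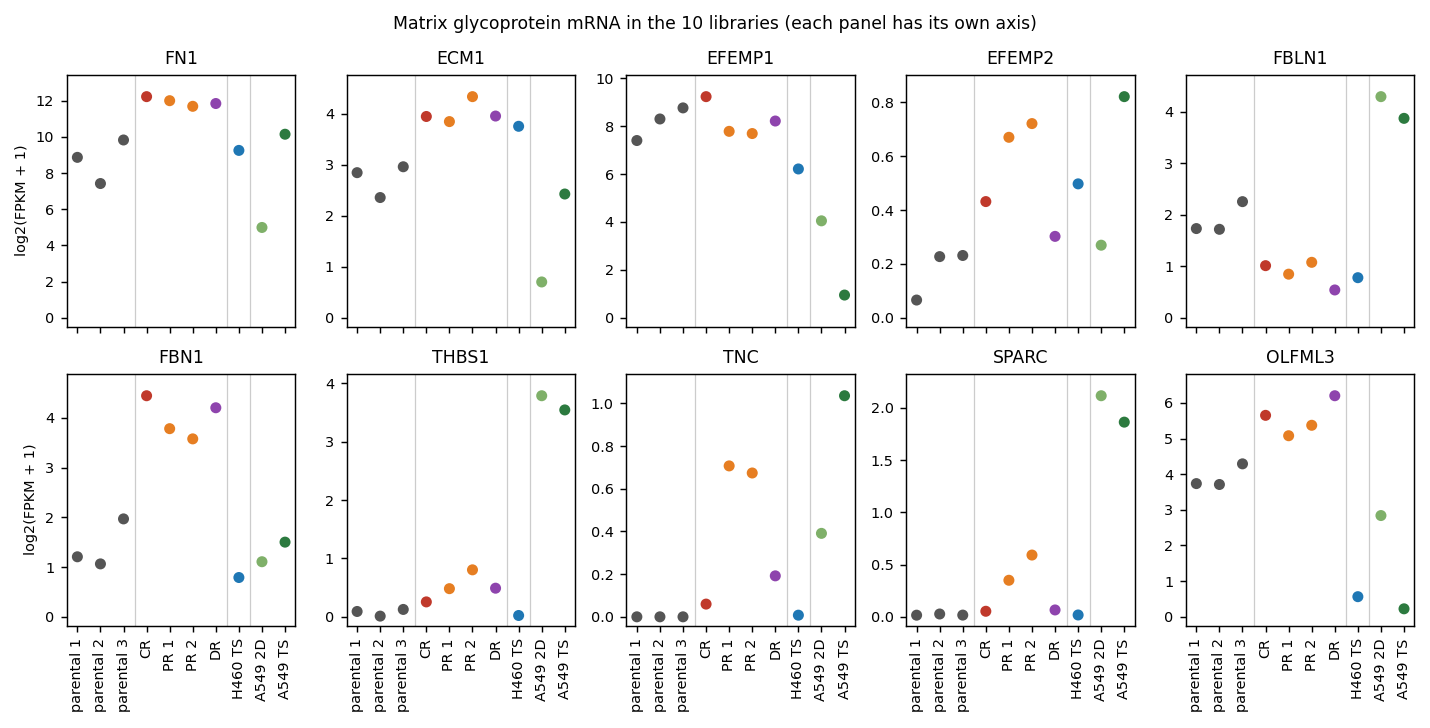
Each panel shows 1 gene and each point 1 library, as log2(FPKM + 1) on an axis of its own; grey points are parental H460, followed by CR, PR and DR, then H460 TS, A549 2D and A549 TS. FN1, ECM1, FBN1 and OLFML3 sit higher in all 4 drug-resistant libraries than in the parental ones, FBLN1 sits lower, and EFEMP1 overlaps.

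FBN1, the gene for fibrillin-1 of the microfibrils, showed the steepest change among the genes over 1 FPKM in parental cells in the edgeR fit of all drug-resistant libraries, narrowly before FN1. FBN1 was at 1.31, 1.09 and 2.91 FPKM in the parental libraries. It was at 20.8 FPKM in CR, 12.7 and 10.9 FPKM in PR, and 17.4 FPKM in DR cells. Every drug-resistant library lay at least 3.75 times above the highest parental one, and the PR cells were the lowest of the survivors. The fit gave a log2 fold change of 3.00 (SE 0.43), beside 2.81 (SE 0.52) for FN1. With limma on log2(FPKM + 1) FN1 changed more, by 3.24 against 2.59 for FBN1, and in PR cells alone by 2.58 against 2.48.

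OLFML3 encodes a secreted olfactomedin-like glycoprotein. It was at 12.3, 12.1 and 18.6 FPKM in parental cells, at 49.2 FPKM in CR, 32.8 and 40.4 FPKM in PR and 72.5 FPKM in DR cells. The groups did not overlap, and DR cells were the highest. Its log2 fold change in the fit was 1.66 (SE 0.33). In contrast, OLFML3 nearly vanished in TS culture of both lines.

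ECM1, which encodes a secreted glycoprotein, was at 6.18, 4.12 and 6.77 FPKM in parental cells. It was at 14.4 FPKM in CR, 13.4 and 19.1 FPKM in PR, and 14.5 FPKM in DR cells. The groups did not overlap, and the fitted log2 fold change was 1.30 (SE 0.23), the smallest of the 8 increases. ECM1 was also higher in TS than in 2D cells of both lines, at 12.5 FPKM in H460 TS cells and at 0.626 and 4.37 FPKM in A549 2D and TS cells.

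EFEMP1, or fibulin-3, was the second most abundant of the 10 by parental mean and the exception among the abundant ones. It was at 168, 315 and 435 FPKM in parental cells and at 603 FPKM in CR, 220 and 206 FPKM in PR, and 297 FPKM in DR cells. The CR value lay above the parental range and the PR and DR values inside it. Over the 4 libraries its fitted log2 fold change was 0.02 (SE 0.45) and was not called. In parental replicate 2, EFEMP1 made up 62.3% of the summed FPKM of the 10 genes and FN1 33.8%, whereas in the drug-resistant libraries FN1 made up between 87.5% and 93.6%.

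FBLN1, or fibulin-1, was the gene of the 10 that was lower in drug-resistant cells. It was at 2.32, 2.29 and 3.77 FPKM in parental cells, at 1.02 FPKM in CR, 0.797 and 1.11 FPKM in PR, and 0.453 FPKM in DR cells. The groups did not overlap, and DR cells were the lowest. The fitted log2 fold change was -1.87 (SE 0.34). The related fibulin genes therefore took 3 different courses in the drug-resistant cells, lower for FBLN1, overlapping for EFEMP1 and higher for EFEMP2.

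THBS1, TNC, SPARC and EFEMP2 were below 1 FPKM in every H460 library, so their changes are between low levels. TNC, which encodes tenascin-C, had 0 counts in the 3 parental libraries, 27 counts in CR, 369 and 290 in PR, and 122 in DR cells. Set against a limit of 3 counts over the parental libraries together, TNC was at least 189-fold higher in the summed drug-resistant libraries. This bound is scaled to library totals, and most of the counts came from the PR libraries. Without parental replicate 1 or 3, which leaves fewer parental reads, the bound was 124-fold. In FPKM it reached only 0.0422 in CR, 0.632 and 0.595 in PR, and 0.142 in DR cells. Such limits and the intervals given here cover counting error only, and the counts may not be independent molecules.

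SPARC, which encodes a collagen-binding matricellular protein, had 4, 5 and 4 counts in parental cells. It had 12 counts in CR, 80 and 117 in PR, and 17 in DR cells. The summed counts gave a ratio of 12.2 after scaling to library totals, with an exact binomial 95% interval of 7.00 to 23.3, and most of the counts came from the PR libraries. Without PR replicate 2 the ratio was 7.34. The fitted log2 fold change was 3.60 (SE 0.94).

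THBS1, or thrombospondin-1, was at 0.0655, 0.0083 and 0.0916 FPKM in parental cells and at 0.194 FPKM in CR, 0.397 and 0.746 FPKM in PR, and 0.405 FPKM in DR cells. EFEMP2, or fibulin-4, which is needed to build elastic fibres, was at 0.0466, 0.171 and 0.174 FPKM in parental cells. It was at 0.349 FPKM in CR, 0.592 and 0.649 FPKM in PR, and 0.233 FPKM in DR cells. For neither gene did the groups overlap, and the fitted log2 fold changes were 2.81 (SE 0.68) for THBS1 and 1.61 (SE 0.54) for EFEMP2. The EFEMP2 call was lost in the fits without CR, either PR or any 1 parental library, and with no filter, and the SPARC call in the fits without any 1 parental library.

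For a given gene, the highest drug-resistant library was not always that of the same drug. Both PR libraries lay above CR and DR cells for TNC, SPARC and EFEMP2, and below them for FBN1, OLFML3 and EFEMP1. CR cells had the highest FN1, FBN1 and EFEMP1, and DR cells the highest OLFML3 and the lowest FBLN1. The differences between drugs were not tested, since CR and DR have 1 library each.

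In PR cells alone against parental cells (n = 2 and 3), 8 of the 10 genes were called higher and 1 lower, beside 17.5% and 10.6% of all 19430 genes tested. The 8 include TNC and SPARC, which had fewer than 10 counts in every parental library. Upper-quartile scaling changed the split of all genes from 3391 higher and 2064 lower to 4252 and 1347. The fitted log2 fold changes were 2.58 (SE 0.58) for FN1, 2.48 (SE 0.43) for FBN1, 1.11 (SE 0.29) for OLFML3 and -1.79 (SE 0.39) for FBLN1. EFEMP1 had -0.78 (SE 0.39) and was not called, but it was called lower without parental replicate 1, with -1.05 (SE 0.31). The count rests on both PR libraries. With either of them left out, which leaves 1, fewer genes were called higher, both of the 10 and of all genes tested. The log2 fold changes of FN1 and FBN1 were then 2.38 and 2.33 without PR replicate 1, and 2.76 and 2.62 without PR replicate 2. FN1, EFEMP2, OLFML3 and FBLN1 were called in neither of these fits, and FBN1 was called in both. PR and the 4 drug-resistant libraries share these PR and parental libraries.

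CR and DR cells have 1 library each, so changes of more than 2-fold on log2(FPKM + 1) from the parental mean were counted, with no test. Of the 6 genes over 1 FPKM in at least 1 of these libraries, 5 were higher in CR cells (FN1, ECM1, EFEMP1, FBN1 and OLFML3) and 0 lower, beside 5.84% and 7.05% of all genes compared. In DR cells 4 were higher (FN1, ECM1, FBN1 and OLFML3) and 1 lower (FBLN1), beside 5.76% and 5.68%. The largest differences were those of FN1, 3.52 in CR and 3.14 in DR cells, and of FBN1, 3.03 and 2.79. CR and DR cells are compared with the same parental libraries.

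The spread of the parental libraries bears on all of these values. Parental replicate 3 was the highest parental library for 8 of the 10 genes, SPARC and TNC being the exceptions. The submitters' library names come in 2 forms, with a hyphen before the year for parental replicate 2, CR, DR and PR replicate 2 and without one for the rest. What the forms stand for is not given in the sources used here. Within the hyphenated form, FN1 differed by 4.50 on log2(FPKM + 1), and within the other form by 2.66, beside 3.24 over all 7 libraries. FBN1 differed by 3.01 and 2.19, OLFML3 by 2.03 and 1.07, and FBLN1 by -0.84 and -1.15. The 9 genes other than EFEMP1 kept their direction in both forms, while EFEMP1 had 0.08 and -0.30. With the form as a covariate in the fit, 7 of the 10 genes were called higher and 1 lower, EFEMP2 no longer being called. Of all 19770 genes tested in that fit, 2657 were called higher and 2291 lower.

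**Figure D3:**
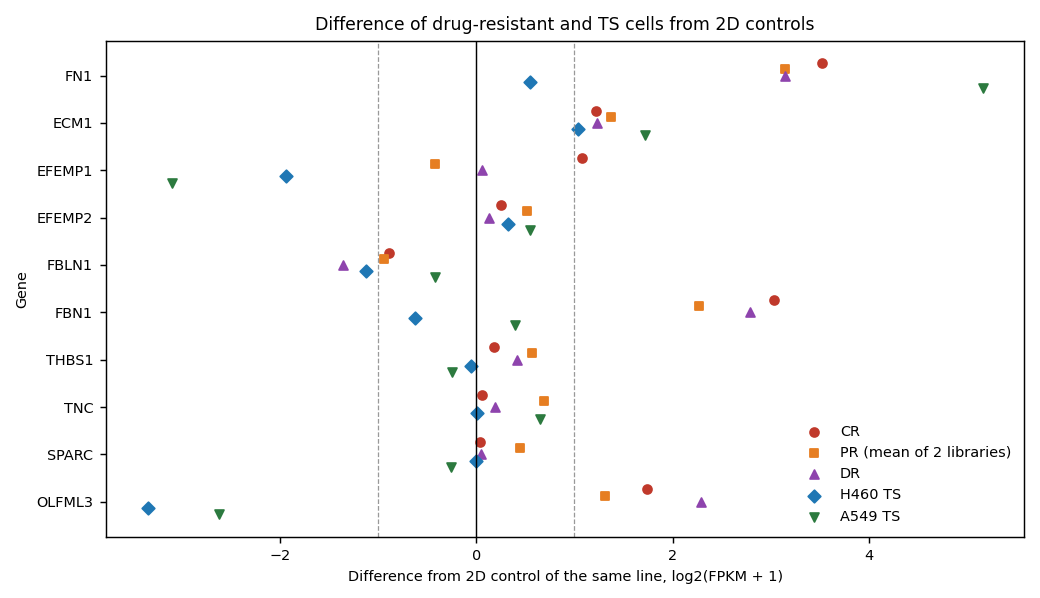
The x axis gives the difference from the 2D cells of the same line on log2(FPKM + 1), with 1 point per gene for CR, PR (mean of 2 libraries), DR, H460 TS and A549 TS; dashed lines mark 2-fold. FN1 and FBN1 lie to the right in all 3 drugs, OLFML3 lies to the right in the drugs and far to the left in both TS cultures, and EFEMP1 lies to the left in both TS cultures.

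TS culture went with a loss of OLFML3 and EFEMP1 mRNA in both lines. OLFML3 was at 0.479 FPKM in H460 TS cells, 29.9-fold below the parental mean, and every parental library was above 12 FPKM. In A549 it was at 6.16 FPKM in 2D and 0.168 FPKM in TS cells, a ratio of 36.6. These TS values rest on 61 and 27 counts. EFEMP1 was at 73.3 FPKM in H460 TS cells, 4.17-fold below the parental mean, and at 15.5 and 0.928 FPKM in A549 2D and TS cells, 16.8-fold lower in TS.

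In the fit over both lines, with the line as a covariate (n = 2 TS and 4 2D libraries), 0 of the 10 genes were called higher and 1 lower, beside 0.147% and 0.0435% of all 18372 genes tested. The gene called was OLFML3, with a log2 fold change of -4.93 (SE 0.41). It was not called without parental replicate 2. EFEMP1 had -2.75 (SE 0.61), ECM1 1.83 (SE 0.47) and FN1 2.49 (SE 1.59), and none of them was called. DESeq2 called ECM1 higher and EFEMP1 and OLFML3 lower, beside 304 higher and 223 lower of all 27597 genes with counts.

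Counted line by line with no test, 1 of 6 genes (ECM1) was more than 2-fold higher in H460 TS cells and 3 (EFEMP1, FBLN1 and OLFML3) lower, beside 1.93% and 1.97% of all genes compared. In A549 TS cells 2 of 9 (FN1 and ECM1) were higher and 2 (EFEMP1 and OLFML3) lower, beside 6.70% and 3.02%. FBLN1 was at 0.714 FPKM in H460 TS cells, below all parental libraries, and at 18.6 and 13.6 FPKM in A549 2D and TS cells. TNC was at 0.311 and 1.05 FPKM in A549 2D and TS cells, and SPARC at 3.33 and 2.64 FPKM. H460 TS cells had 4 counts each of TNC and SPARC, too few to set against the parental cells.

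The set of matrix glycoprotein mRNAs differed between the 2 lines in 2D culture. A549 2D cells had more THBS1 (12.8 FPKM), SPARC (3.33 FPKM) and FBLN1 (18.6 FPKM) than every parental H460 library. They had less FN1, 16.7-fold below the parental H460 mean, less EFEMP1 (19.7-fold), less ECM1 (9.09-fold) and less OLFML3 (2.33-fold). By the same 2-fold count, 3 of 8 genes were higher in A549 and 4 lower, beside 11.2% and 7.73% of all genes compared. THBS1 was 232 times the parental H460 mean, which rests on 42, 5 and 62 counts. A549 has 1 library in 2D, so the difference between lines has no replicate check on that side.

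The 10 genes did not move as 1 block over the libraries. Pearson's r on log2(FPKM + 1) over the 8 H460 libraries was 0.94 for FN1 with FBN1, 0.87 for FN1 with ECM1 and -0.61 for FN1 with FBLN1. OLFML3 had 0.85 with FBN1 and 0.67 with FN1, and TNC had 0.94 with SPARC. Over all 10 libraries, THBS1 and SPARC had 0.99, since both are high in the A549 libraries. These values describe libraries that fall into a few groups. Among 13439 genes over 1 FPKM in at least 2 libraries, COL4A6 (0.98), ATP6AP1 (0.96), SOX9 (0.96), COL4A5 (0.95) and NOMO3 (0.95) had the highest r with FN1 over the 10 libraries. COL4A6, a chain of basement membrane collagen, was at 29.8, 24.3 and 38.7 FPKM in the parental libraries, between 59.2 and 78.5 FPKM in the drug-resistant ones, and at 8.41 and 36.4 FPKM in A549 2D and TS cells.

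Matrix glycoprotein genes outside the 10 were more often called higher than lower in drug-resistant cells. In a list of 64 such genes, 45 passed the filter on low counts, 21 were called higher by edgeR and 1 lower, beside 18.5% and 15.3% of all genes tested. The median log2 fold change of the 45 was 1.20 and that of all genes 0.06. The list was written with results of these libraries known and leaves out the 10. Of the 45, 7 had fewer than 10 counts in every parental library, so that they passed the filter through the drug-resistant ones, and all 7 were called higher. Among the other 38, 14 were called higher and 1 lower. Of all 64, 25 were called higher and 1 lower by DESeq2, beside 4458 and 2957 of all 31956 genes with counts.

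The 5 largest fitted increases belonged to RELN, PXDN, TNFAIP6, THBS2 and MMRN1, which were close to silent in parental cells. Such genes could pass the filter only by being higher in the drug-resistant libraries. Their counts are therefore given as a description, with bounds drawn from the counts for RELN. RELN, which encodes reelin, had 0 counts in the parental libraries and 8, 19, 14 and 109 in CR, PR replicates 1 and 2, and DR cells. Against 3 counts over the parental libraries it was at least 35.2-fold higher, and at least 13.7-fold without DR cells, which held most of the counts (at least 23.0-fold without parental replicate 1 or 3). PXDN, a matrix peroxidase that crosslinks collagen IV, had 3 parental counts in all, and 107, 183, 146 and 48 in CR, PR replicates 1 and 2, and DR cells. TNFAIP6, which binds hyaluronan, had 8 parental counts in all and between 37 and 260 in the drug-resistant libraries. THBS2, or thrombospondin-2, had 2 and between 23 and 50, and the multimerin MMRN1 had 6 and between 4 and 61.

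MATN3, a matrilin of cartilage, fell by 1.28 on the log2 scale (SE 0.41, edgeR adjusted p = 0.0356), a call that was lost with limma, with upper-quartile scaling, with the form of the library name as a covariate and without PR replicate 1 or 2, DR, or parental replicate 2 or 3 (adjusted p between 0.0678 and 0.149). With upper-quartile scaling 24 genes of the list were called higher and 0 lower, beside 4210 and 2032 of all 18398 genes tested. Named after its values were seen, TGFBI, a secreted matrix adhesion protein, was at 570, 678 and 928 FPKM in parental cells and at 3079 FPKM in CR, 2370 and 2755 FPKM in PR, and 2769 FPKM in DR cells. It rose by a log2 fold change of 1.80 (SE 0.27, edgeR adjusted p = 0.000967). LTBP1, which anchors latent TGF-beta in the matrix, and VTN, which encodes vitronectin, also chosen after their values were seen, rose by 3.16 (SE 0.29, edgeR adjusted p = 0.000189) and 2.65 (SE 0.41, adjusted p = 0.00116).

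**Figure D4:**
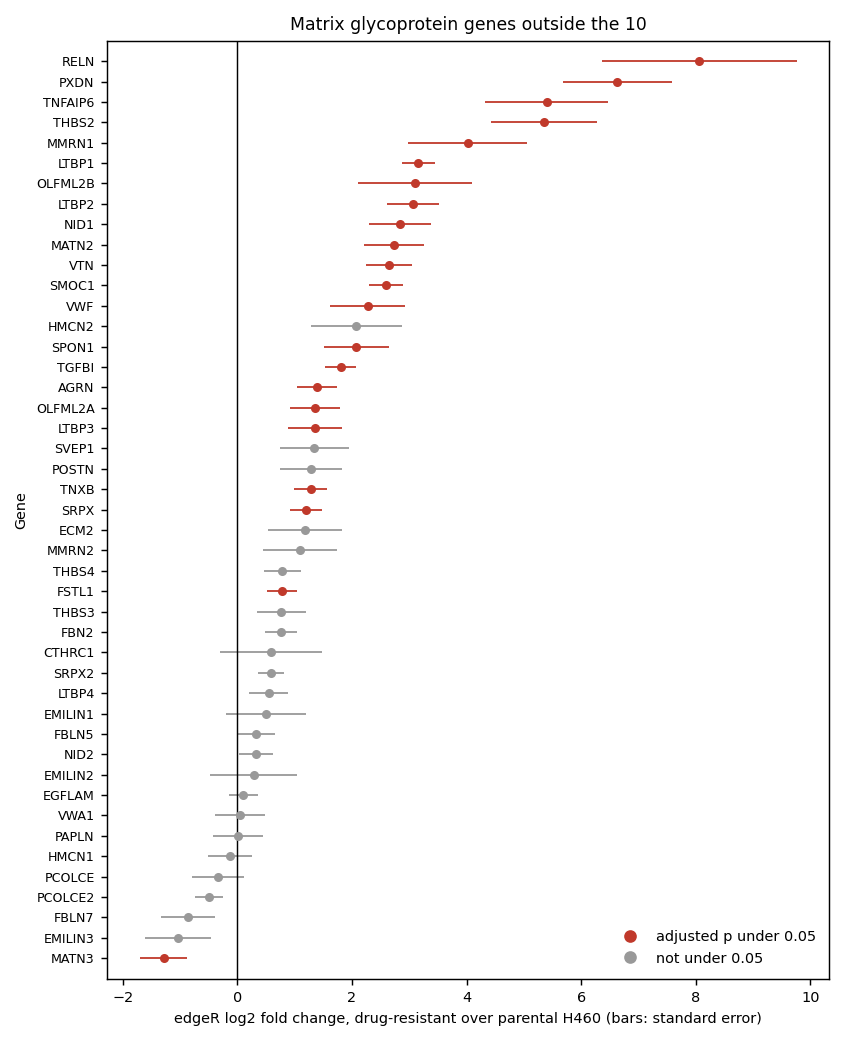
Points are edgeR log2 fold changes of drug-resistant over parental H460 for the 45 tested matrix glycoprotein genes outside the 10, bars are 1 standard error, and red marks an adjusted p under 0.05. Of these, 21 lie to the right in red and only MATN3 to the left, and the fitted value of RELN depends on its 0 parental counts.

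Receptors that bind fibronectin were the next list, 11 integrin subunits and the syndecans SDC2 and SDC4. Of these 13 genes, 12 were tested, 9 were called higher and 0 lower in drug-resistant cells, beside the same 18.5% and 15.3% of all genes. The median log2 fold change was 1.00, and 2 of the 12, both called, had fewer than 10 counts in every parental library. Without parental replicate 1 or 2 the count called higher was 5, beside 2630 and 2200 of all genes tested. ITGA3 was at 1.50, 1.34 and 2.31 FPKM in parental and between 27.4 and 53.4 FPKM in drug-resistant cells, and rose by 4.35 (SE 0.34, edgeR adjusted p = 9.42e-05). The 2 near-silent genes were ITGB3, with 11 parental counts in all and at most 0.369 FPKM in drug-resistant cells, and ITGB6, with 0. ITGB6 was at least 20.4-fold higher against 3 counts over the parental libraries, and at least 13.3-fold without parental replicate 1 or 3. The subunits of the classical fibronectin receptor, named after their values were seen, rose less, ITGA5 by 0.83 (SE 0.24, edgeR adjusted p = 0.0237) and ITGB1 by 0.68 (SE 0.21, adjusted p = 0.0295). The ITGB1 call was lost without any 1 library other than PR replicate 2, and the ITGA5 call without PR replicate 2 or parental replicate 1 or 2. With the form of the library name as a covariate both calls were lost (adjusted p = 0.0687 and 0.0511 in edgeR), and with no filter that of ITGB1 (adjusted p = 0.0651).

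The last list holds 11 enzymes that crosslink or process the matrix and 6 ADAMTS-like glycoproteins, which have no protease domain. Of its 17 genes, 11 were tested, and 4 were called higher and 0 lower, beside 18.5% and 15.3% of all genes. The 4 were among the 8 enzymes tested. BMP1, a protease that trims procollagens, was at 3.92, 3.82 and 4.96 FPKM in parental and between 14.0 and 17.5 FPKM in drug-resistant cells (log2 fold change 1.78, SE 0.21, edgeR adjusted p = 0.000332). Its relative TLL2 rose by 2.73 (SE 0.70, edgeR adjusted p = 0.014) from below 0.03 FPKM, and TGM2, a transglutaminase that uses fibronectin as a substrate, by 2.27 (SE 0.76, adjusted p = 0.0418). TGM2 was at 0.131, 0.026 and 0.02 FPKM in parental cells and between 0.0835 (CR) and 0.596 FPKM (PR replicate 1) in drug-resistant cells, so the groups overlapped. Calls were lost without parental replicate 2 or 3 for both, and for TGM2 also without either PR library and with no filter. Without parental replicate 2, 2 of 12 genes tested in this list were called higher, beside 2200 of all 19642 genes tested. The other gene called was LOXL2, a lysyl oxidase, chosen after its values were seen, at 28.6, 27.0 and 39.4 FPKM in parental cells and at 68.2 FPKM in CR, 69.4 and 76.7 FPKM in PR, and 110 FPKM in DR cells. It rose by 1.24 (SE 0.26, edgeR adjusted p = 0.00572).

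In PR cells alone, 20 of 48 tested genes of the glycoprotein list were called higher and 1 lower, 7 of 12 receptor genes higher and 0 lower, and 4 of 11 genes of the enzyme and ADAMTS-like list higher and 0 lower. Of all genes tested in PR cells, 17.5% were called higher and 10.6% lower. The list genes called higher include MGP, RELN, PXDN, TNFAIP6, THBS2, ITGB3 and ITGB6, which had fewer than 10 counts in every parental library. These passed the filter through the PR libraries, so their calls are no evidence about the lists. With either PR library left out, which leaves 1, fewer genes of each list were called higher, as of all genes tested. Of the enzyme and ADAMTS-like list, 2 were called higher without parental replicate 2, beside 2383 of all 19245 genes tested. In TS against 2D cells, edgeR called 0 of 45 glycoprotein genes, 0 of 13 receptor genes and 0 of 13 genes of the enzyme and ADAMTS-like list. At an unadjusted edgeR p under 0.05 these numbers were 9, 2 and 2, beside 1363 of all 18372 genes tested. DESeq2 called 6 glycoprotein genes (3 higher and 3 lower), 0 receptor genes and 2 genes of the last list, and limma 0 in each list. Of all 27597 genes with counts, DESeq2 called 304 higher and 223 lower. With 2 TS libraries of different lines, this does not show that the levels were equal.

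Markers of other cell types were read because matrix glycoproteins are typical of fibroblasts. The summed level of 9 fibroblast markers was 20.8 to 42.6 FPKM in parental and 37.7 to 56.2 FPKM in drug-resistant libraries, and the ranges overlapped. Within it ACTA2 was higher (5.84 to 10.1 against 27.3 to 33.3 FPKM) and COL3A1 lower (13.6 to 26.5 against 2.50 to 7.22 FPKM). COL1A1 was at 0.0848 to 0.193 FPKM in parental and 0.783 to 6.51 FPKM in drug-resistant libraries, and PDGFRB at 0.862 to 4.23 and 4.24 to 7.07 FPKM. LUM was at 0.237 to 2.76 FPKM in parental and 0.362 to 6.99 FPKM in drug-resistant libraries. For DCN these ranges were 0 to 0.0284 and 0.0155 to 0.319 FPKM, so both genes overlapped. COL1A2 was at most 0.0419 FPKM, PDGFRA at most 0.0296 FPKM and THY1 at most 0.0050 FPKM in the parental and drug-resistant libraries. The sum of 5 leukocyte markers was 17.8 to 26.4 FPKM in parental and 42.2 to 72.5 FPKM in drug-resistant libraries, nearly all CD68 and CD14, while PTPRC, the pan-leukocyte marker, was at most 0.157 FPKM. The 4 endothelial markers summed to at most 0.07 FPKM in these libraries. Whether the ACTA2, COL1A1, PDGFRB, CD68 and CD14 differences have a part in those of FN1 was not tested.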

How the data were processed

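Poly(A) RNA was sequenced for the authors by a sequencing service in 10 libraries. Per the labels, their processing notes name bcl2fastq 1.8.4, Trimmomatic, HISAT2 2.1.0, StringTie 2.1.3b and GRCh38, without roles or settings, and the strand setting is not given in the sources used here. The authors deposited whole-number read counts per gene without normalization, and FPKM values normalized for transcript length and library size. TPM values were deposited too and were not tested. Groups were taken from the sample titles.

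The 10 genes, the gene lists and the comparisons were chosen with earlier results of these data known. Counts were tested with the quasi-likelihood test of edgeR 4.0.16 in R 4.3.3 (TMM, filterByExpr with a minimum count of 10, Benjamini-Hochberg over all genes tested, threshold 0.05). Single libraries were compared as differences of log2(FPKM + 1) over genes with at least 1 FPKM in at least 1 library. Alternatives were limma 3.58.1 on log2(FPKM + 1) for genes with at least 1 FPKM in 2 libraries, DESeq2 1.42.0, other scalings, no filter, each library left out in turn, the form of the library name and the replicate number as a block. Leaving out either TS library or the A549 2D library, and leaving out each library for the bounds of genes with few parental counts, was added after the data were seen. Where this left 1 library in an arm, that library was taken to vary like the others. Exact binomial intervals are at 95%. The edgeR fits were tested on simulated data. In these lists the named genes were up to 5 called higher and up to 5 called lower with the largest fitted changes (3 and 3 in the receptor and enzyme lists), and the 5 genes with the highest Pearson r with FN1. Positions are from GENCODE 29, and promoter sequences from RefSeq on GRCh38.p14.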

Additional observations from a re-analysis of the deposited data

Results flagged for a closer look

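FBN1 differed in the direction of its TS value between the 2 lines. H460 TS cells, at 0.729 FPKM, lay below all 3 parental libraries, and A549 TS cells, at 1.83 FPKM, lay above the A549 2D cells, at 1.15 FPKM. On log2(FPKM + 1) the difference of TS from 2D was -0.62 in H460 and 0.39 in A549, so that the lines were 1.02 apart. The difference between the lines was not tested, because each has 1 TS library.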

How the results depend on the processing

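The number of genes called in drug-resistant against parental cells stayed within 1.5 times the 6220 reported under every alternative run. For PR cells, limma on log2(FPKM + 1) called 3026 genes beside 5455, with fewer genes tested, and leaving out 1 library in turn gave 950 (without PR replicate 2) to 6661 (without parental replicate 3). Without PR replicate 1 it was 2068 and without parental replicate 2 it was 3570. For TS against 2D cells, DESeq2 called 527 genes beside 35, and leaving out 1 library gave 6 (without parental replicate 2) to 322 (without A549 TS). It was 10 without parental replicate 3, 249 without H460 TS and 320 without A549 2D cells. Of the glycoprotein list DESeq2 called 6 in TS cells beside 0, and leaving out 1 library gave 0 to 4, with 2 called without H460 TS and 4 without A549 TS or A549 2D cells. The causes were not tested.

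Parental and PR libraries share replicate numbers 1 and 2, and nothing says that these pair the cultures. The difference of PR replicates 1 and 2 had r = 0.08 with that of the parental ones over 19179 genes. A fit with the replicate block called 6775 genes, and the same 4 libraries without the block 6661. The block changed no call of the 10 genes. For named genes of the other lists, 340 values kept their direction and call under the alternatives, and 50 kept the direction and lost the call. No called value of the 10 genes changed direction. Their fitted log2 fold changes stayed within the standard deviation of the parental libraries in 262 cases and moved further in 88. For TNC, with 0 counts in every parental library, that standard deviation is 0. A gene with fewer than 10 counts in every parental library, such as SPARC or RELN, is limited by depth.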
